A study of Mus musculus with 4 samples.

Results

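The axon guidance families examined here were the semaphorins, their plexin receptors, the netrins with their receptors of the UNC5 and DCC type, and the Slit proteins with their Robo receptors. Members were taken by symbol from the protein-coding genes of the GENCODE annotation of the mouse genome build mm10. A symbol was kept if it began with Sema, Slit, Robo or Ntn followed by a number, with Plxn followed by a letter from a to d, or with Unc5, and Dcc was added. The rule found 47 of 21951 protein-coding genes, and each of the 47 held at least 1 of the deposited accessible regions (peaks) on its body or the 2000 bases upstream. They were 7 class 3 semaphorins, which are secreted, 13 membrane-bound semaphorins, 9 plexins, 4 netrins, 7 genes grouped as UNC5 and DCC, 3 Slits and 4 Robos. Unc50 was included by the letters of its symbol and is no netrin receptor, and Unc5cl is an UNC5C-like gene.

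Single-nucleus ATAC-seq, which counts the cuts of a transposase in open chromatin nucleus by nucleus, was performed on inguinal white adipose tissue (iWAT) of male C57BL/6 mice. The mice were 8 weeks old and 3 were used in each of 7 groups. One group was kept at room temperature (22 °C) and taken before any intervention (day0RT). Cold groups were kept at 6.5 °C for 1, 3 or 7 days (day1C, day3C and day7C), and CL groups received CL-316,243 (CL), a β3-adrenergic receptor agonist, at 1 mg/kg for 1, 3 or 7 days (day1CL, day3CL and day7CL). The comparisons addressed which cell types held these loci open and how cold and CL changed them in adipocytes.

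Semaphorins, netrins and Slits are extracellular cues that steer growing axons by attraction or repulsion, and their receptors pass the signal to the actin cytoskeleton. Class 3 semaphorins bind plexins of the A type through neuropilins, membrane-bound semaphorins bind plexins directly, netrins bind DCC and UNC5 proteins, and Slits bind Robos. The same proteins act outside the nervous system in vessel growth, immune cell contact and cell migration. Adipose tissue is supplied by sympathetic nerves and capillaries, and adipocytes and stromal cells are known sources of some of these cues.

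Sequences are given of 4 peaks whose values are described below, and 9 short motifs were searched in them. Whether the gene differences rest on these peaks was not tested. The Slit3 peak lay at the start of the gene on chromosome 11, and its part printed here is the 250 bases before the annotated start. The peaks of Unc5a (chromosome 13, 10953 bases past the start) and Unc5b (chromosome 10, 19601 bases past the start) lay in introns. The Unc5a peak was higher after CL. The Unc5b peak had higher values after CL and after cold, but it passed the filter on low counts only through treated groups. Both peaks were chosen after their values were seen, and the Unc5b values are given as a description. A Plxna1 peak in an intron (chromosome 6, 10841 bases past the start) was higher in beige than in white adipocytes. For these 3 the central 300 bases are printed. Coordinates are of GRCm38 (mm10), sequence was read from the reference genome of that build, and each runs 5′ to 3′ on the strand of its gene, with matched motifs in capitals.
Slit3, chr11:35120974-35121223, plus strand: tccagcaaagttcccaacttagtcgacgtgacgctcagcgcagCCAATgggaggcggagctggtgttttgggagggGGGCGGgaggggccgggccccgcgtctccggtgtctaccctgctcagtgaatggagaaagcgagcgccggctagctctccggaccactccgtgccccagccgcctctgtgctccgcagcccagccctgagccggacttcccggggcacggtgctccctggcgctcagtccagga
Unc5a, chr13:54960215-54960514, plus strand: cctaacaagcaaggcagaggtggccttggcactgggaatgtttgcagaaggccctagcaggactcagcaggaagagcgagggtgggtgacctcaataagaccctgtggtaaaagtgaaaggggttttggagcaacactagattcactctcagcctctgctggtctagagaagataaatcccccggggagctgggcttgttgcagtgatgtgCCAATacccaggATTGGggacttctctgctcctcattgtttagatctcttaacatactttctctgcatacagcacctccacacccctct
Unc5b, chr10:60811831-60812130, minus strand: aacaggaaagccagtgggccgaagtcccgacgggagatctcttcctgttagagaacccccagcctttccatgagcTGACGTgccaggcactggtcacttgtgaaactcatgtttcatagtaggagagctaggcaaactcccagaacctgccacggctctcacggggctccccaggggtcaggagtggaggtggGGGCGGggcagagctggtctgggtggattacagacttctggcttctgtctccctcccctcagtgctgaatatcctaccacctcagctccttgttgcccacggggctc
Plxna1, chr6:89351630-89351929, minus strand: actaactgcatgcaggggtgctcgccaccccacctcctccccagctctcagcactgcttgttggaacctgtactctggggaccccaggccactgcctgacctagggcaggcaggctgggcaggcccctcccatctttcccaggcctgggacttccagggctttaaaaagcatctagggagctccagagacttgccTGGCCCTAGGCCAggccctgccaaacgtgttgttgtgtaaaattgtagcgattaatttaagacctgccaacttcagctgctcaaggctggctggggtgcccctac
The capitals mark a CCAAT box (CCAAT) at bases 44 to 48 and a GC box (GGGCGG) at bases 77 to 82 of the Slit3 sequence. In the Unc5a sequence they mark CCAAT at bases 212 to 216 and, on the other strand, at bases 224 to 228. The Unc5b sequence held the core of a cAMP response element (TGACGT) at bases 76 to 81 and GGGCGG at bases 194 to 199, and the Plxna1 sequence held a palindrome of the NFI type (TGGCNNNNNGCCA) at bases 196 to 208. The other motifs searched on both strands were AAGGTCA (ERR type), TCCCNNGGGA (EBF type), TTNCGNAA (C/EBP type), ACANNNTGT (glucocorticoid receptor type) and TGANTCA (AP-1 type), and no marked match overlapped another.

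Such matches were common or rare to different degrees. Of 27025 stretches of 250 bases before a gene start, 34.5% held CCAAT and 32.9% held GGGCGG. Of 189598 windows of 300 bases, 1 centred on each peak, 33.6% held CCAAT, 10.7% GGGCGG, 3.91% TGACGT and 1.7% TGGCNNNNNGCCA. The Slit3 stretch had a GC content of 68.4% and 21 CpG pairs, against medians of 52% and 6 over the 27025 stretches. The Unc5a window had 2 CpG pairs and a GC content of 51.7%, against a median of 47.7% over all windows.

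The deposited matrix held 189598 peaks in 32552 nuclei of 21 mice, which the authors had placed in 12 clusters. Mice had 1111 to 2021 nuclei each, the median counts per nucleus of a mouse ranged from 657.5 to 2362, and lymphocytes made up 11.9% to 90.8% of a mouse's nuclei. Nearly all entries of the matrix were 1, so a value is in effect a number of nuclei with an open peak. In 3 mice, day1CL replicate 3, day3CL replicate 2 and day3C replicate 1, fewer than 50% of the nuclei were lymphocytes. Of the barcode sequences, 4218 were shared by 2 or more mice, always within 1 replicate number and 1 treatment, and 8739 nuclei carried one of them. Clusters were checked against markers. The summed level of skeletal muscle markers was 1040.3 CPM (counts-per-million, over the gene counts of a library) in the cluster annotated as vascular smooth muscle cells (VSMC) and 53.2 to 99.3 CPM in the other clusters. The VSMC label therefore went against the data. The markers of mural and smooth muscle cells summed to 159 CPM in the VSMC cluster and to 782 CPM, their highest, in the adipocyte progenitor cluster APC2. The study itself reports mural genes as more accessible in APC2, beside Pdgfra in both progenitor clusters. Both labels are used here only as names. Progenitor markers summed to 994 CPM in APC1 and 237 CPM in APC2.

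The members were long genes with many peaks. Their median length was 69.0 kb against 23.8 kb over the 17196 protein-coding genes with a peak, and their median number of peaks was 9 against 4. Together they held 659 peaks, from 1 in Sema4c and Sema4g to 81 in Slit3. A peak within 2000 bases of the start was missing in 7 members (14.9%), against 14.5% of all genes. Promoter sequences from RefSeq matched 38 members, with a median GC content of 65.5% against 59.3% over all matched genes and a median ratio of observed to expected CpG pairs of 0.672 against 0.700. All peaks of Unc50 (2), Ntn3 (2) and Ntn5 (5), and 2 of the 7 peaks of Sema3g, also lay on other genes, so their values could not be given to 1 gene.

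Chromatin at the 47 loci was open in different cells. The highest mean CPM over mice was in APC2 for 11 members, in vascular endothelial cells (VEC) for 10, in APC1 for 7, in beige adipocytes, the VSMC cluster, dendritic cells and CD8 T cells for 3 each, in white adipocytes and B cells for 2 each, and in macrophages, other T cells and CD4 T cells for 1 each. These levels are a description, since the clusters were made from the same counts. The tally was not made over all genes, so it does not set these families apart. Some highest means were near ties, as for Sema4c in VEC and Plxna4 in APC2, each 1.03 times the next cluster outside its own pair. Libraries were small in several clusters. In the smallest VEC library, of 6689 counts, 3 counts are 448 CPM, and in the smallest beige library, of 16099 counts, 3 counts are 186 CPM, so a library without a count does not show a closed gene.

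**Figure D1:**
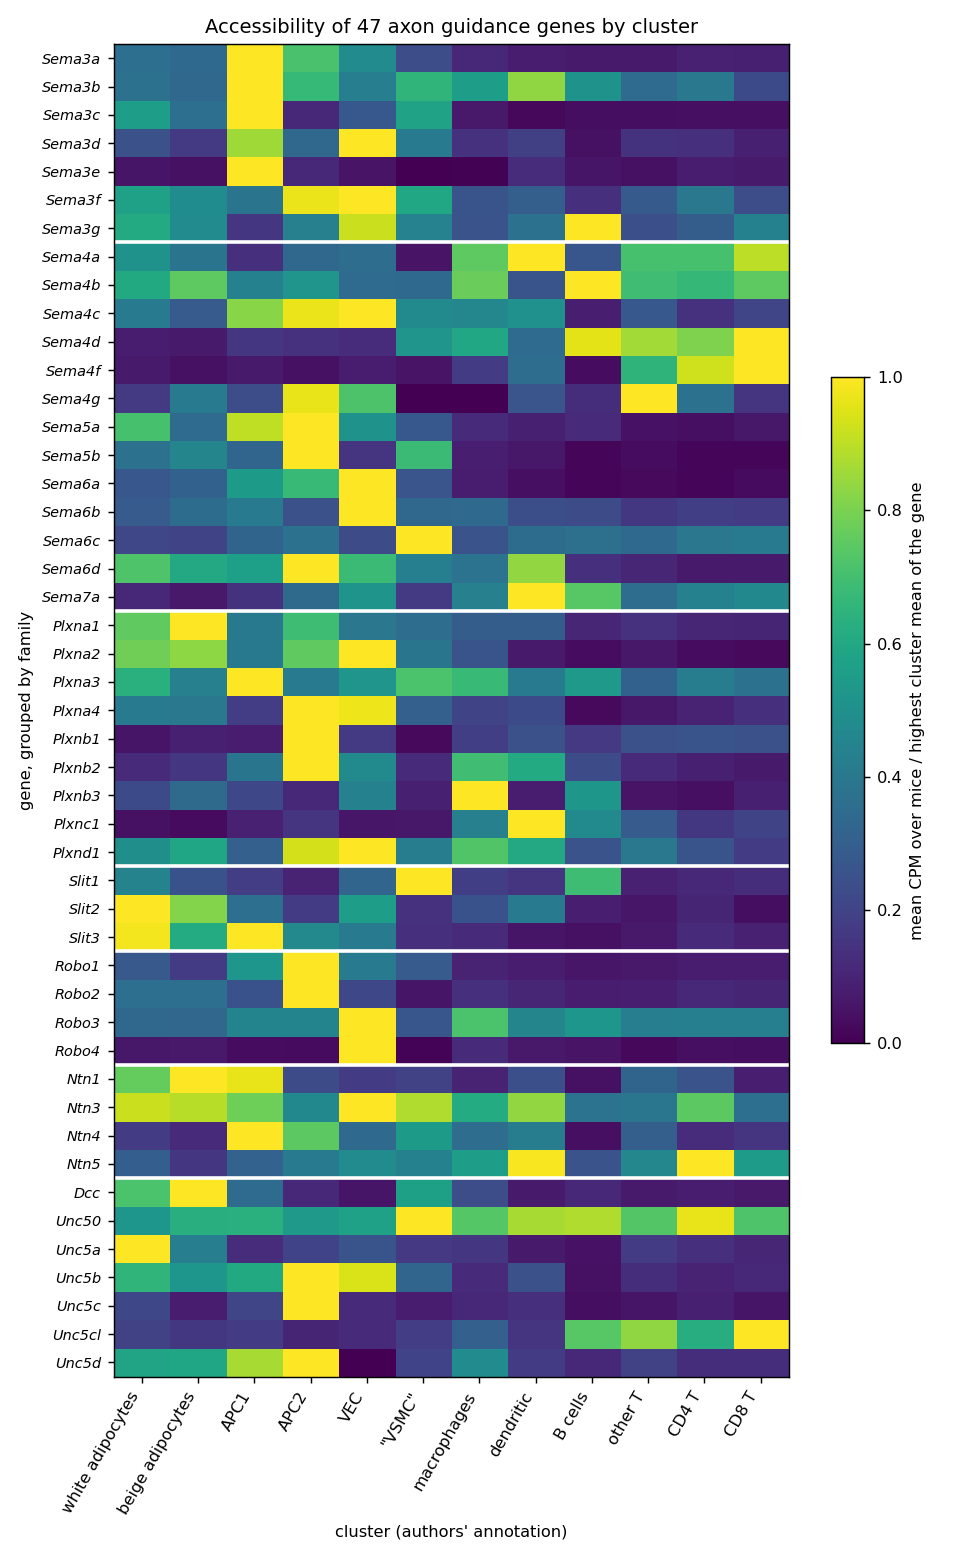
Mean CPM of the 47 members (vertical axis, by family) in the 12 clusters (horizontal axis), each divided by the gene's highest cluster mean (colour, from 0 to 1). The highest means of 11 members lie in APC2, of 10 in VEC and of 7 in APC1, a tally not made over all genes.

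Among Slits and Robos, Slit3, a secreted ligand of Robos, was at 740.4 ± 244 CPM (SD, n = 20 mice) in APC1 and 726 ± 89.0 CPM (n = 21) in white adipocytes, which overlapped. Beige adipocytes followed with 456 ± 75.8 CPM (n = 19), then APC2 with 349 ± 87.6 CPM (n = 19) and VEC with 309 ± 172 CPM (n = 15), and B cells were lowest with 33.8 ± 25.7 CPM (n = 21). The receptors had another order. Robo1 was at 411 ± 90.2 CPM in APC2, with a lowest mouse of 213, a median of 422 and a highest of 603 CPM, against 216 ± 68.1 CPM in APC1 and 168 ± 92.9 CPM in VEC. Robo2 was at 201 ± 52.0 CPM in APC2 (122 to 297 CPM over 19 mice), 2.72 times the next cluster outside the APC pair. Robo4, the endothelial member of the family, was at 66.2 ± 50.7 CPM in VEC (0 to 149 CPM, median 68.5 CPM) and at 8.25 ± 13.2 CPM in macrophages, the next cluster, a ratio of 8.02.

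The netrin receptors Unc5a and Unc5c were open in different clusters. Unc5a, a netrin receptor that mediates repulsion, was at 174 ± 42.3 CPM (n = 21, 97.2 to 251 CPM, median 178 CPM) in white and 74.4 ± 31.8 CPM (n = 19) in beige adipocytes, and at 45.1 ± 33.5 CPM in VEC, the highest cluster outside adipocytes. Unc5c was at 246 ± 55.9 CPM in APC2, from 143 to 361 CPM with a median of 253 CPM, against 53.0 ± 15.5 CPM in white adipocytes and 51.5 ± 59.9 CPM in APC1. The lowest APC2 mouse lay above the highest white adipocyte mouse, at 79.8 CPM. Ntn1, the netrin that both receptor types bind, was at 217 ± 56.4 CPM in beige adipocytes and 210.0 ± 89.1 CPM in APC1, which overlapped, and for Dcc the means were 24.9 ± 16.2 CPM in the beige cluster and 17.8 ± 7.01 CPM in the white cluster.

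Semaphorins and plexins were spread over stromal, endothelial and immune clusters. Sema3a, a secreted repellent of axons, was at 175 ± 67.1 CPM in APC1, 125 ± 43.9 CPM in APC2 and 84.4 ± 119 CPM in VEC, and these ranges overlapped. Sema3e, a ligand of Plxnd1, was at 45.2 ± 40.4 CPM in APC1 (0 to 129 CPM, median 38.2 CPM), 7.99 times the highest cluster outside the pair. Sema6b was at 191 ± 127 CPM in VEC, 2.45 times the next cluster, and Sema6c at 121 ± 58.9 CPM (n = 10) in the VSMC cluster, 2.40 times the next. Plxnb1, a receptor of Sema4d, was at 85.6 ± 41.8 CPM in APC2 (28.6 to 186 CPM), 3.85 times the next cluster outside the pair. Its ligand Sema4d lay elsewhere, at 549 ± 51.5 CPM in CD8 T cells, 526 ± 41.1 CPM in B cells and 43.6 ± 17.3 CPM in white adipocytes. Plxnc1, the receptor of Sema7a, was at 827 ± 105 CPM (n = 17) in dendritic cells, 2.11 times the level in B cells, with 392 ± 40.1 CPM.

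Per kilobase of peak, which allows genes to be compared, the order within a cluster differed. Unc50 had the highest level per kilobase in white (32.8 CPM per kb) and beige adipocytes (39.2), macrophages (46.0), B cells (55.0), CD4 T cells (60.4) and other T cells (45.7). All 2 of its peaks also lie on another gene, so this level cannot be given to Unc50 alone. After Unc50, Plxna1, a co-receptor for class 3 semaphorins, led in white (25.8 CPM per kb) and beige adipocytes (34.1). Plxnb2 came second to Unc50 in macrophages (33.3 CPM per kb), Sema4b in B cells (40.1), and Sema4f in CD4 T cells (45.7) and other T cells (32.0). The highest levels per kilobase elsewhere were Sema3e in APC1 (43.3), Sema4c in APC2 (49.7), Robo4 in VEC (83.4), Sema6c in the VSMC cluster (76.3), Plxnc1 in dendritic cells (58.6) and Sema4f in CD8 T cells (49.2).

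Beige and white adipocyte nuclei of the same mouse were compared in 19 mice. Unc5a, Unc5c, Slit3 and Slit1 were lower in beige nuclei, and Plxna1 and Ntn1 were higher. Of the 47 members, 30 passed the filter on low counts, 18 of them differed (edgeR quasi-likelihood test, adjusted p under 0.05), 6 were higher and 12 lower in beige nuclei, and the median log2 fold change was -0.22. Over all 10717 genes tested, 30.4% differed and the median was 0.01. Since the authors drew the border between beige and white nuclei from these same data, the p-values do not stand apart from that border. The same holds for every comparison between clusters below, since all clusters were made from these counts.

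Unc5a ranged from 0 to 149.9 CPM in beige nuclei (median 74.5 CPM) and from 97.2 to 251 CPM in white nuclei (median 178 CPM). It was lower in beige nuclei of 19 of 19 mice, with a log2 fold change of -1.15 (SE 0.088, adjusted p = 2.02e-20), although the ranges overlapped. Slit3 ranged from 299 to 627 CPM in beige nuclei (median 443 CPM) and from 602 to 986 CPM in white nuclei (median 704 CPM). Again all 19 mice had the lower value in beige nuclei, and the log2 fold change was -0.63 (SE 0.054, adjusted p = 7.14e-18). Sema5a, a membrane semaphorin with thrombospondin repeats, was lower in 19 of 19 mice, at 107 ± 37.5 against 219 ± 39.0 CPM (log2 fold change -0.98, SE 0.087, adjusted p = 4.65e-17). Unc5c was also lower in 19 of 19 mice, at 20.1 ± 13.9 against 55.0 ± 14.7 CPM (log2 fold change -1.16, SE 0.14, adjusted p = 2.09e-11). The beige values of Unc5c alone would not have passed the filter on low counts, so this difference is given as a description.

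Plxna1 went the other way in all 19 mice. Its beige values ran from 124 to 306 CPM (median 221 CPM) and its white values from 112 to 201 CPM (median 162 CPM), with a log2 fold change of 0.45 (SE 0.067, adjusted p = 2.66e-08). The promoter of Plxna1 did not share this difference, since peaks within 2000 bases of the start alone gave -0.03 (adjusted p = 0.950). For Nrp2, the neuropilin through which Sema3c and Sema3f reach A-type plexins, beige nuclei had 390.3 ± 75.1 CPM and white nuclei 222 ± 27.3 CPM, without overlap between the 19 beige and 19 white libraries (log2 fold change 0.73, SE 0.058, adjusted p = 7.68e-20). The share of all genes without overlap was not counted here. The Nrp2 ligand Sema3c was lower in beige nuclei of 16 of 19 mice (log2 fold change -0.54, SE 0.10, adjusted p = 5.74e-06).

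Among the other Slit and Robo genes, Slit1 (log2 fold change -0.77, SE 0.12, adjusted p = 1.62e-07) and Robo1 (-0.61, SE 0.098, adjusted p = 2.43e-07) were each lower in beige nuclei of 15 of 19 mice. The membrane semaphorins Sema4c (-0.65, SE 0.14, adjusted p = 9.25e-05) and Sema4a (-0.48, SE 0.093, adjusted p = 1.68e-05) were lower in 17 and 16 of 19 mice. Slit2, Unc5b and Sema6d were the remaining members with lower levels in beige nuclei, and Ntn1, Sema4b, Plxnd1, Sema6a and Sema5b the remaining higher ones. For these 8 the log2 fold changes lay between -0.45 (Slit2) and 0.32 (Ntn1). Sema5b lay near the threshold, and its call was kept in 10 of 21 fits without 1 mouse and in 2 of 8 other settings. That of Sema6a was lost with DESeq2, with promoter peaks only and without the 3 mice of few lymphocytes. The largest part of the family that was not tested here was low in both clusters, including Dcc, Unc5d, Robo3, Robo4 and Sema3e.

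**Figure D2:**
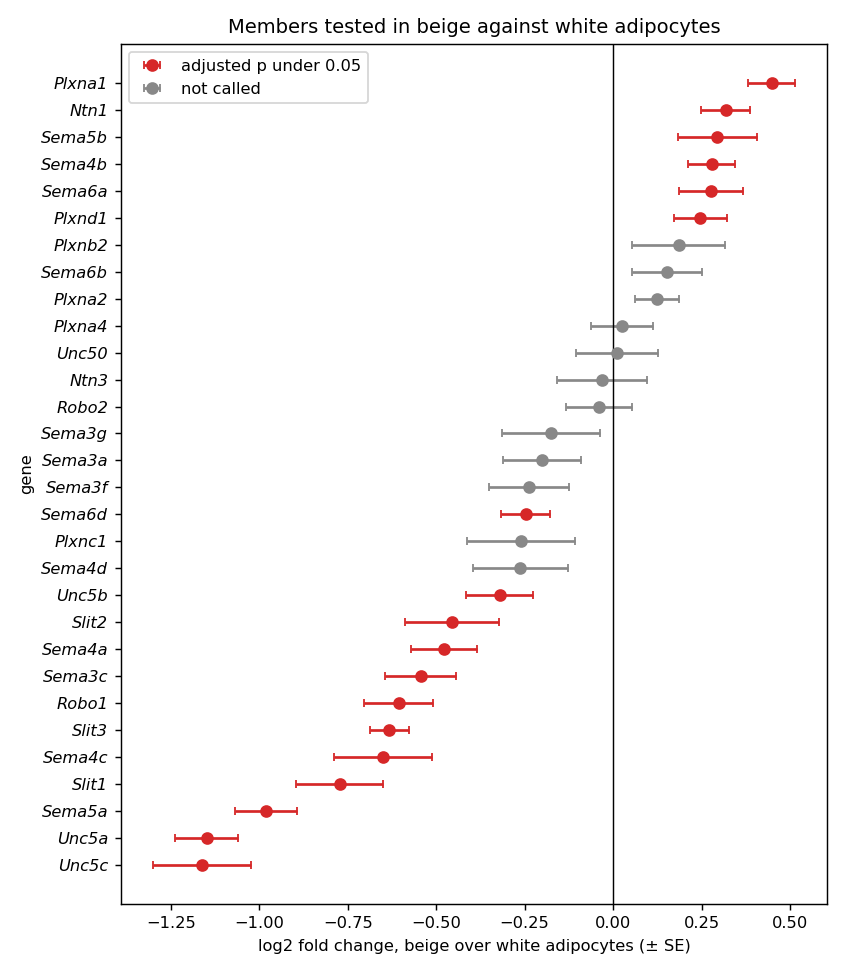
Log2 fold change of beige against white adipocytes (horizontal axis, dot) with its SE (bar) for the 30 members tested, over 19 mice. Unc5c (-1.16) and Unc5a (-1.15) lie farthest to the left and Plxna1 (0.45) farthest to the right.

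Single peaks located some of these differences. Of 27 member peaks that passed the filter, 8 differed between beige and white nuclei, 4 higher and 4 lower, against 16.0% of all 11161 peaks tested. The only peak of Sema4c, at its start, was lower in beige nuclei of 17 of 19 mice, at 22.3 ± 21.3 against 33.3 ± 5.89 peak CPM (counts-per-million over all peaks, log2 fold change -0.69, SE 0.14, adjusted p = 3.45e-05). The Plxna1 peak whose sequence is printed above was at 32.5 ± 16.0 against 20.97 ± 4.87 peak CPM (0.54, SE 0.13, adjusted p = 0.000569), higher in 13 of 19 mice. A second Plxna1 peak 24882 bases past the start was higher in 12 of 19 mice (0.35, SE 0.12, adjusted p = 0.0244). In Slit3 an intronic peak 583298 bases past the start was lower in 17 of 19 mice (-0.61, SE 0.15, adjusted p = 0.000716). Another at 505297 bases was lower in 12 of 19 (-0.37). Ntn1 had 2 intronic peaks with higher values (0.51 and 0.33, in 12 and 14 of 19 mice), and Sema6d 1 with a lower value (-0.51, in 15 of 19). Without the library of day3C replicate 1, 5 of the 8 calls were kept, and 1 of the peaks was not tested.

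White adipocytes and APC1, the cluster with the highest progenitor markers, were compared in 20 mice. Of 25 members tested, 20 differed, 11 higher and 9 lower in adipocytes, beside 59.0% of the 7531 genes tested. Adipocytes had the higher Unc5a level in 20 of 20 mice, at 173 ± 42.9 against 22.3 ± 31.2 CPM (log2 fold change 2.79, SE 0.20, adjusted p = 1.99e-42), and the higher Sema4a level in 20 of 20 mice (1.56, SE 0.18, adjusted p = 2.36e-16). Sema4a, a membrane semaphorin known from immune cells, was at 114 ± 18.1 against 31.3 ± 28.7 CPM. Ntn4, a netrin of basement membranes, was lower in adipocytes of 18 of 20 mice, at 17.0 ± 5.60 against 92.2 ± 45.0 CPM (-2.06, SE 0.17, adjusted p = 1.85e-32). Sema3a (-1.28, SE 0.12, adjusted p = 5.05e-24), Sema6a (-1.06), Robo1 (-0.83) and Sema3c (-0.82) were lower in adipocytes of 19, 17, 20 and 18 of 20 mice. Unc5a and Sema4a passed the filter on low counts only through adipocytes and Ntn4 only through APC1, so their differences are given as a description. The p-values do not stand apart from the border between these clusters, drawn from the same data.

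Receptors of class 3 semaphorins were among the members higher in adipocytes. Plxna2 was at 277 ± 27.8 against 147 ± 75.2 CPM (0.91, SE 0.12, adjusted p = 4.98e-13, higher in 19 of 20 mice), and the ligand gene Slit1 was higher in 18 of 20 mice (1.26, SE 0.21, adjusted p = 1.84e-08). Sema4c was lower in adipocytes (-0.89, adjusted p = 2.26e-07). Plxna4, Plxna1, Sema3f, Sema4b, Robo2, Unc5c and Plxnd1 were also higher, and Sema4d, Ntn1 and Sema5a lower. The Unc5c call was kept in 12 of 20 fits without 1 mouse and lost with DESeq2 and with library size only, and that of Plxnd1 was lost in 3 of 8 other settings. Ntn1 was lost with DESeq2, with no filter on low counts and with nuclei of at least 2000 counts. With the 3 mice of few lymphocytes left out, 11 members differed, and the share of all genes in that setting is not given here. The difference in Sema5a turned from -0.24 to 0.04 when genes with low counts were kept in the fit (adjusted p = 0.795).

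APC1 and APC2 differed in 4 of the 5 members that could be tested in 18 mice, where 61.0% of the 669 genes tested differed. Slit3 was higher in APC1, at 721 ± 249 against 340.5 ± 82.5 CPM (1.09, SE 0.11, adjusted p = 6.16e-23, 17 of 18 mice). Its receptor Robo1 was lower in APC1 of 18 of 18 mice, at 217 ± 71.7 against 412 ± 92.8 CPM (-0.73, SE 0.13, adjusted p = 6.12e-08). Plxna2 (-0.77, SE 0.15, adjusted p = 5.55e-07) and Sema6d (-0.60, SE 0.13, adjusted p = 1.64e-05), a ligand of Plxna1, were lower in APC1 of 16 of 18 mice each. Between VEC and APC1, over 15 mice, Slit3 was the only member tested. It was lower in VEC, at 309 ± 172 against 754 ± 266 CPM (-1.04, SE 0.14, adjusted p = 2.99e-12, 14 of 15 mice). Only 189 genes were tested there, and 64.0% of them differed. These counts rest on few tested members. Plxna2 passed the filter on low counts only through APC2, and Slit3 in the comparison with VEC only through APC1, so these differences are given as a description. With no filter on low counts 22 members differed between APC1 and APC2 and 17 between VEC and APC1. More genes are tested without the filter, so the unfiltered counts cannot be set against the shares above.

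Macrophages and dendritic cells were compared in 17 mice, and 5 of 6 members tested differed, beside 60.9% of the 910 genes tested. Plxnc1 was at 226 to 487 CPM in macrophages (median 364 CPM) and at 651 to 999.5 CPM in dendritic cells (median 794 CPM), so the groups did not overlap. It was lower in macrophages of 17 of 17 mice (-1.13, SE 0.089, adjusted p = 6.50e-28). Groups without overlap were not counted over all genes. Sema4b went the other way in 17 of 17 mice, at 316 ± 73.7 against 104 ± 66.3 CPM (1.40, SE 0.13, adjusted p = 1.10e-20). Sema6d was lower in macrophages of 16 of 17 mice, at 142 ± 38.7 against 311 ± 86.9 CPM (-1.001, SE 0.13, adjusted p = 3.41e-13). Sema4d, a ligand of Plxnb1 and of Cd72, was higher in 14 of 17 mice (0.88, SE 0.12, adjusted p = 1.71e-11), and Sema4a lower in 12 of 17 (-0.50, SE 0.13, adjusted p = 0.000266). Sema4b passed the filter on low counts only through macrophages and Sema6d only through dendritic cells, so their differences are given as a description. The p-values do not stand apart from the border between these clusters, drawn from the same data.

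**Figure D3:**
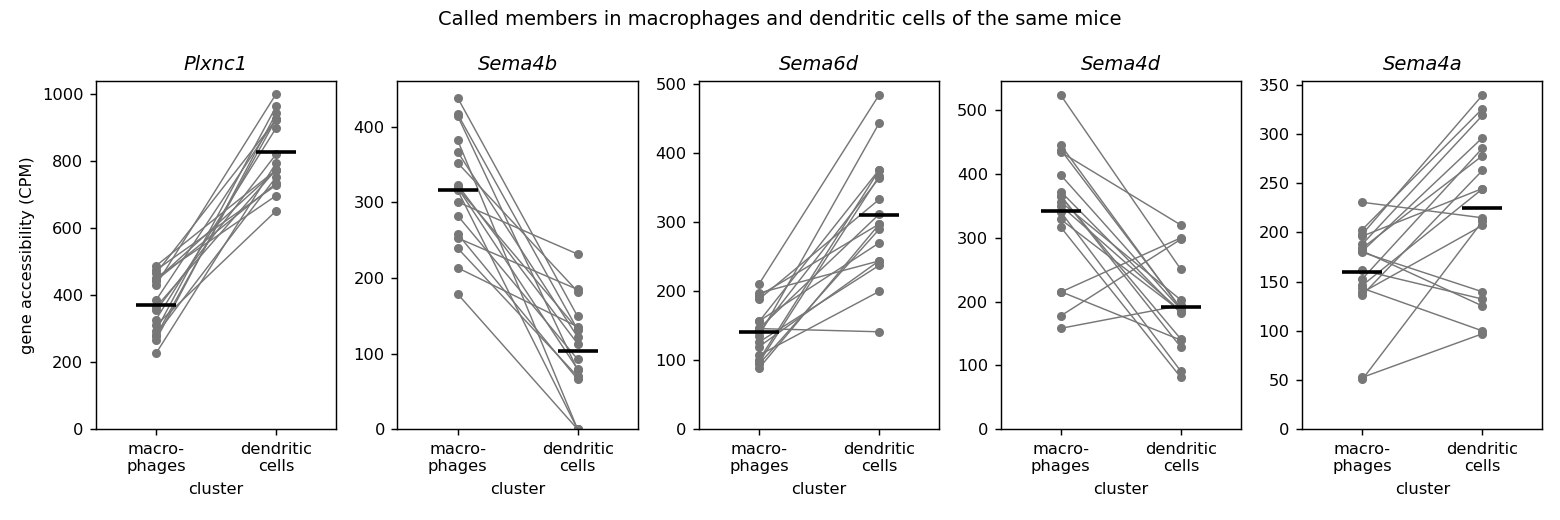
CPM of 5 members in macrophages and dendritic cells (vertical axis), with a line for each of 17 mice. The Plxnc1 values of the 2 clusters do not overlap, and Sema4b is higher in macrophages of 17 mice.

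CD4 and CD8 T cells were compared in 20 mice. Of 11 members tested, 7 differed, 2 higher and 5 lower in CD4 cells, beside 18.9% of the 7904 genes tested. Sema4d was lower in CD4 cells of 18 of 20 mice, at 443 ± 53.0 against 549 ± 51.5 CPM (-0.30, SE 0.045, adjusted p = 5.72e-10). Unc5cl was lower in 17 of 20 mice (-0.66, SE 0.12, adjusted p = 2.12e-07), at 38.8 ± 24.9 against 62.4 ± 23.8 CPM. The CD4 values of Unc5cl alone would not have passed the filter on low counts, so this difference is given as a description. Plxnd1, the receptor of Sema3e that is known from vessels and thymocytes, was higher in CD4 cells of 14 of 20 mice (0.56, SE 0.11, adjusted p = 5.49e-06). Sema4a (-0.28), Plxnc1 (-0.23) and Sema4b (-0.16) were lower and Slit3 (0.28) higher, with adjusted p between 0.000512 and 0.0280. With only nuclei of at least 2000 counts, 2 members differed, and the share of all genes in that setting is not given here.

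A list of 67 further genes of these pathways, among them co-receptors, cytoplasmic mediators and other partners, was measured beside the members. Between beige and white nuclei 21 of 46 tested differed, beside 30.4% of all genes, 9 higher and 12 lower. After Nrp2, those with the smallest p were Srgap1, a GTPase-activating protein downstream of Robos (-0.52, adjusted p = 1.14e-09), Arhgef11 (0.55, adjusted p = 2.91e-07), Met (-0.38, adjusted p = 8.61e-07) and Ablim1 (0.31, adjusted p = 9.10e-07). In macrophages against dendritic cells 7 of 9 differed, beside 60.9% of the genes tested. Srgap2 (1.10) and Nrp1 (0.85) were higher and Nck2 (-0.90), Nrp2 (-0.47) and Mical3 (-0.38) lower. The counts were 24 of 37 for white adipocytes against APC1 (59.0% of the genes tested) and 8 of 13 for APC1 against APC2 (61.0%). They were 3 of 4 for VEC against APC1 (64.0%) and 15 of 25 for CD4 against CD8 T cells (18.9%). Nrp2 was at 34.7 ± 16.7 CPM in CD4 and 77.4 ± 15.4 CPM in CD8 T cells and was lower in CD4 cells of 20 of 20 mice (-1.04, SE 0.11, adjusted p = 1.55e-17). Its CD4 values alone would not have passed the filter on low counts, so this difference is also a description.

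White and beige adipocyte nuclei were then summed per mouse, and each treated group was compared with day0RT in 1 fit over 21 mice, in which 42 members were tested. Treatment changed few members, and 3 of them recurred. Slit3 was lower than at day0RT in 4 of the 6 comparisons (day7C, day1CL, day3CL and day7CL), and Robo2 and Unc5a were higher in 3 of 6 (day7C, day3CL and day7CL). The 6 comparisons share the 3 day0RT mice. Nuclei of day0RT, cold and CL mice also carried separate sets of 12 barcode indexes, so treatment and index set cannot be told apart. The share of beige nuclei among adipocyte nuclei rose from 7.69% to 12.2% at day0RT to 26.1% to 32.5% at day7C and 14.5% to 23.5% at day7CL, and its part in the results was not tested except where white nuclei alone are given.

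No member differed from day0RT at day1C or day3C by edgeR or DESeq2, beside 0.340% and 1.68% of all genes, with 4 and 7 members at an unadjusted p under 0.05. The share of all genes at that unadjusted threshold is not given here. At day1C 49 genes differed in all, and 25 with the replicate number as a block. At day7C 3 of 42 members differed, beside 5.08% of all genes. In the CL groups 1 differed at day1CL (2.61% of all genes), 5 at day3CL (4.77%) and 5 at day7CL (7.81%). The median log2 fold change of the 42 members was 0.14 at day7C, 0.22 at day3CL and 0.20 at day7CL, against -0.01 over all genes in each.

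Slit3 was at 781, 952 and 840.0 CPM in the 3 day0RT mice. The cold mice had 755, 627 and 705 CPM at day1C, 679, 708 and 728 CPM at day3C and 609.4, 659 and 664 CPM at day7C. The CL mice had 675, 730.2 and 609.8 CPM at day1CL, 573, 661 and 690.2 CPM at day3CL and 579, 653 and 612 CPM at day7CL. All 18 treated mice therefore lay below the lowest day0RT mouse. Slit3 was picked by its p, and the share of all genes with such a separation was not counted. The log2 fold change was -0.40 at day7C (SE 0.093, adjusted p = 0.00318), -0.41 at day1CL (SE 0.11, adjusted p = 0.0198), -0.37 at day3CL (SE 0.092, adjusted p = 0.00745) and -0.46 at day7CL (SE 0.093, adjusted p = 0.000483). In white nuclei alone it was -0.25 at day7C (adjusted p = 0.176), -0.40 at day1CL (0.0391), -0.39 at day3CL (0.00658) and -0.41 at day7CL (0.00336). The change at day1CL was not called without day1CL replicate 3 (-0.30, adjusted p = 0.601), a mouse with few lymphocytes, nor without day0RT replicate 2 (0.102) or replicate 3 (0.0511), and that at day3CL not without day0RT replicate 2 (-0.31, 0.0674).

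Robo2, a receptor of Slits, was at 59.3, 45.7 and 50.8 CPM at day0RT. It stayed at 51.1, 52.0 and 57.6 CPM at day1C and was at 73.0, 74.6 and 63.6 CPM at day3C and at 112, 85.4 and 76.2 CPM at day7C. In CL mice it was at 40.9, 78.6 and 67.8 CPM at day1CL, 96.2, 95.8 and 95.7 CPM at day3CL and 100.3, 87.3 and 80.7 CPM at day7CL. The mice of day3C, day7C, day3CL and day7CL lay above all day0RT mice. Robo2 was also picked by its p, and such a separation was not counted over all genes. The log2 fold change was 0.76 at day7C (SE 0.17, adjusted p = 0.00250), 0.86 at day3CL (SE 0.16, adjusted p = 0.000203) and 0.82 at day7CL (SE 0.16, adjusted p = 0.000477), and in white nuclei alone it was 0.77, 0.81 and 0.79. At day7C the call was lost without day7C replicate 1 (0.58, adjusted p = 0.0724) or day0RT replicate 3 (0.72, 0.0627). Robo2 was highest in APC2, and the 6 markers of mural and smooth muscle cells, which were also highest there, summed in adipocyte nuclei to 206 to 249 CPM at day0RT, 214 to 244 CPM at day7C, 267 to 286 CPM at day3CL and 253 to 271 CPM at day7CL. At day7C these sums lay within the range of day0RT, and in the CL groups above it, and their part in the Robo2 result was not tested. Peaks within 2000 bases of the start alone gave -0.30 at day3CL (adjusted p = 0.8285) and 0.07 at day7CL (0.962).

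Unc5a was at 116.5, 116 and 114 CPM at day0RT. At day7C it was at 179.6, 162 and 154 CPM, at day3CL at 227, 208 and 192 CPM, and at day7CL at 182, 149 and 159.9 CPM, in each case above the day0RT mice. Values of 94.9 CPM in 1 day1C mouse and 95.9 CPM in 1 day3C mouse lay below them, beside 151 to 167.5 CPM in the other mice of these groups. Unc5a was picked by its p as well, and separation of groups was not counted over all genes. The log2 fold change was 0.51 at day7C (SE 0.15, adjusted p = 0.0359), 0.84 at day3CL (SE 0.14, adjusted p = 4.83e-05) and 0.54 at day7CL (SE 0.15, adjusted p = 0.0134). White nuclei alone gave 0.81, 0.84 and 0.65, with adjusted p of 0.00200, 0.000107 and 0.00482. DESeq2 did not call it at day7C (adjusted p = 0.0836) or day7CL (0.0962). With promoter peaks only it was lost at day7C, day3CL and day7CL, and with nuclei of at least 2000 counts it was lost at day7C. Without day7CL replicate 1 the day7CL value was 0.42 (adjusted p = 0.240), and without day0RT replicate 3 it was 0.53 (0.0987), and at day7C the call was lost without any 1 of 5 mice, the 3 day0RT mice and day7C replicates 1 and 2 (adjusted p 0.0637 to 0.165).

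Further members changed in 1 comparison each, with adjusted p near the threshold. At day3CL Sema4c fell to 37.2, 29.5 and 31.9 CPM from 47.0, 52.7 and 48.5 CPM at day0RT (-0.60, SE 0.19, adjusted p = 0.0430), and Plxnd1 rose to 160.0 ± 7.38 from 124 ± 2.99 CPM (0.39, SE 0.12, adjusted p = 0.0484). At day7CL Plxna4 rose to 113, 123 and 108 CPM from 65.4, 63.2 and 98.2 CPM (0.49, SE 0.15, adjusted p = 0.0298), and Sema3d to 27.2, 20.8 and 28.9 CPM from 18.4, 10.5 and 11.5 CPM (0.88, SE 0.29, adjusted p = 0.0445). The day0RT and treated mice did not overlap in these 4, which were picked by their p, and the share of all genes without overlap was not counted. Over the 21 fits without 1 mouse the call was kept in 16 for Sema4c, 17 for Sema3d, 17 for Plxna4 and 2 for Plxnd1, and each was lost without day0RT replicate 2. In other settings it was kept in 6 of 11 for Sema4c, 6 of 10 for Sema3d and 10 of 11 for Plxna4. Sema4c was lost among others without the 3 mice of few lymphocytes, and Plxna4 with DESeq2. Plxnd1 was also lost in 10 of 12 other settings, among them DESeq2 (adjusted p = 0.151), library size only (0.0593) and white nuclei alone (0.0621). With the replicate number as a block Plxnd1 was at 0.40 (adjusted p = 0.0510) and Sema3d at 0.80 (adjusted p = 0.0877). The Sema4c value of 0 CPM in day1CL replicate 1, a library of 48868 counts, allows up to 61.4 CPM.

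**Figure D4:**
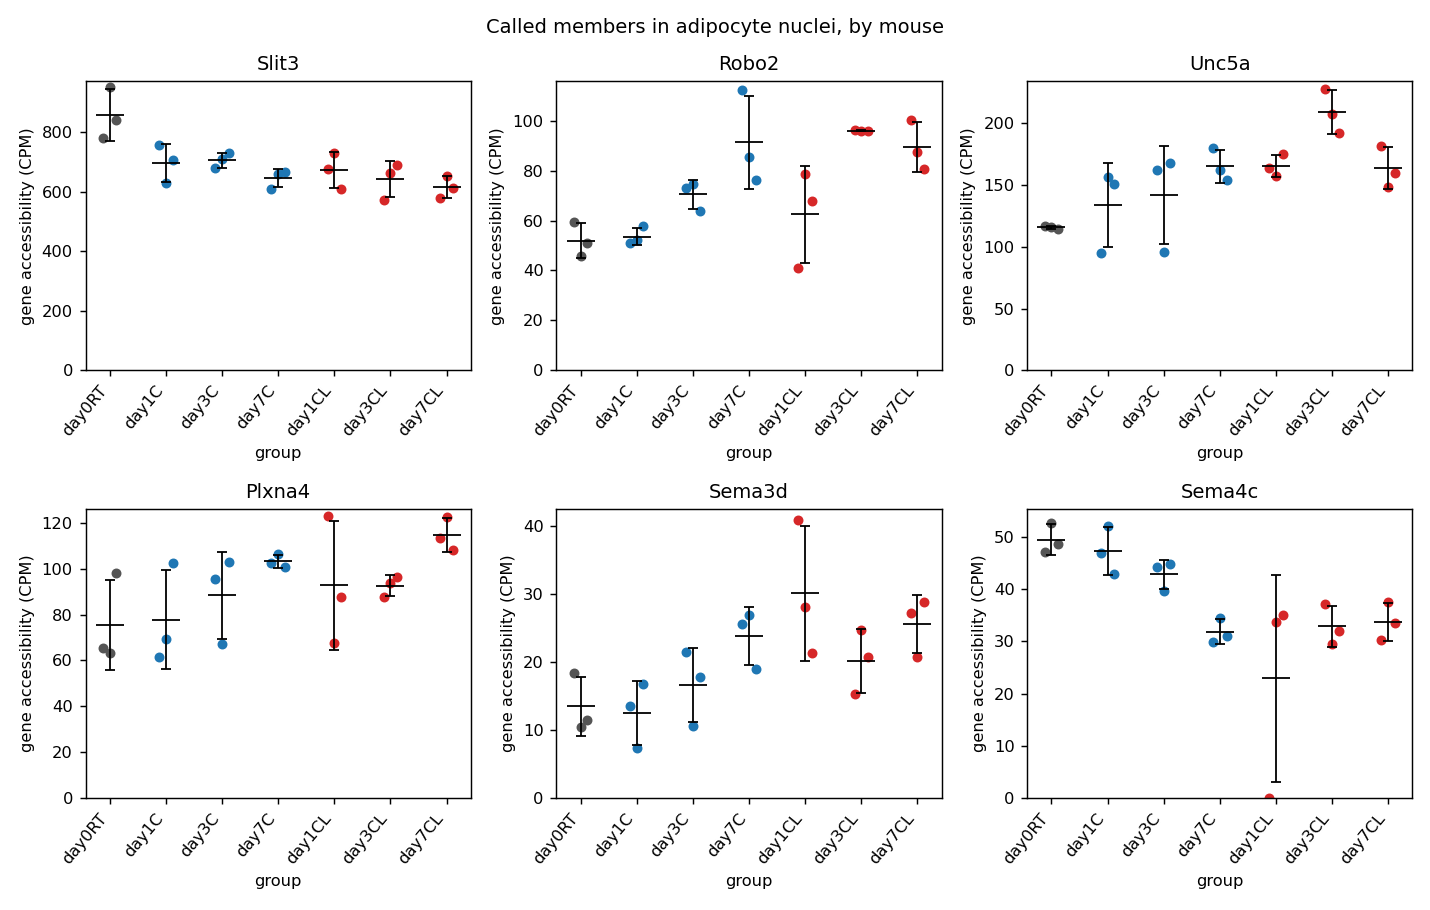
CPM of 6 members in adipocyte nuclei (vertical axis) by group (horizontal axis), with a dot for each of 3 mice and a bar for the mean ± SD. Slit3 is between 781 and 952 CPM at day0RT and at most 755 CPM in the treated mice, and Robo2 and Unc5a at day3CL and day7CL lie above their day0RT values.

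CL and cold groups were compared at matched days. Their nuclei carried separate sets of barcode indexes, so stimulus and index set cannot be told apart in this comparison either. No member differed at day 1 by edgeR or DESeq2, beside 0.922% of all genes, with 7 members at an unadjusted p under 0.05. Again the share of all genes at that unadjusted threshold is not given. At day 3, 4 of 42 differed, beside 1.46% of all genes. Unc5a was at 227, 208 and 192 CPM after CL and at 162, 95.9 and 167.5 CPM after cold (0.48, SE 0.11, adjusted p = 0.0106), and Robo2 at 96.2, 95.8 and 95.7 CPM against 73.0, 74.6 and 63.6 CPM (0.44, SE 0.11, adjusted p = 0.0202). Sema5b, a membrane semaphorin, was at 50.3, 48.1 and 50.4 CPM after CL and at 34.9, 32.0 and 32.4 CPM after cold (0.53, SE 0.14, adjusted p = 0.0228). Unc5c was lower after CL, at 48.1, 33.0 and 44.2 CPM against 58.1, 59.4 and 74.8 CPM (-0.64, SE 0.14, adjusted p = 0.00502). The CL and cold mice did not overlap in any of the 4. These were picked by their p, and non-overlap was not counted over all genes. DESeq2 gave no adjusted p for Sema5b and Unc5c and did not call Unc5a (0.189) or Robo2 (0.483). Without the 3 mice of few lymphocytes, 2 of which belong to these groups, adjusted p were 0.118 for Unc5a, 0.356 for Robo2 and Sema5b and 0.353 for Unc5c.

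At day 7, 1 member differed between CL and cold, beside 0.111% of all genes, which is 16 genes, or 32 with the replicate number as a block. Sema4d was at 47.7, 64.4 and 48.7 CPM after CL and at 29.9, 13.5 and 30.9 CPM after cold (0.92, SE 0.18, adjusted p = 0.00921), with 47.0, 21.1 and 47.4 CPM at day0RT. Sema4d is far higher in lymphocytes, and the B cell markers in adipocyte nuclei moved with it, at 139 ± 6.82 CPM at day7CL, 98.4 ± 7.02 CPM at day7C and 137 ± 23.4 CPM at day0RT. The T cell markers were at 67.9 ± 4.70 and 51.9 ± 8.03 CPM at day7CL and day7C. The part of lymphocyte signal in the Sema4d difference was not tested. In white nuclei alone it was 0.74 (adjusted p = 0.217), DESeq2 did not call it (0.783), and it was lost without day7C replicate 1 (0.0636), day7C replicate 2 (0.137) or day7CL replicate 2 (0.0966).

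Of the 67 pathway partners, 59 were tested in adipocytes. The count that changed against day0RT by edgeR was 1 at day1C (0.340% of all genes), 0 at day3C (1.68%), 1 at day7C (5.08%), 0 at day1CL (2.61%), 3 at day3CL (4.77%) and 4 at day7CL (7.81%), each of them higher. Itga1, the integrin subunit that binds Sema7a with β1 integrin, was at 154 ± 17.9 CPM at day0RT, 226 ± 17.6 CPM at day1C (0.53, adjusted p = 0.0406), 208 ± 3.40 CPM at day7C (0.39, adjusted p = 0.0494), 204 ± 12.1 CPM at day3CL (0.40, adjusted p = 0.0350) and 206 ± 22.2 CPM at day7CL (0.39, adjusted p = 0.0323). Srgap2 was higher at day3CL than at day0RT (0.60, adjusted p = 0.00604) and than at day3C (0.56, adjusted p = 0.00199), and Ptprj higher at day7CL than at day7C (0.68, adjusted p = 0.0252). Dock1 at day3CL and Cd72, Farp1 and Efna5 at day7CL made up the rest.

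Single peaks in adipocytes were compared in a fit over 47835 peaks, added after the gene results were seen, in which 153 member peaks were tested. Member peaks differed from day0RT in 0 cases at day1C (0.213% of all peaks, 14 member peaks at an unadjusted p under 0.05), 2 at day3C (1.28%), 2 at day7C (3.13%), 4 at day1CL (2.06%), 6 at day3CL (3.46%) and 9 at day7CL (4.19%). The calls at day3C, day7C, day3CL and day7CL include the Unc5b peak described below, which passed the filter only through treated groups. It enters the tallies of treatment peaks here and below wherever it was tested and called. A Sema6d peak called at day1CL and day7CL, described below, also passed the filter only through treated groups. CL and cold differed in 0 at day 1 (0.458%, 23 at an unadjusted p under 0.05), 4 at day 3 (1.79%) and 0 at day 7 (0.0230%, 11 at an unadjusted p under 0.05). Shares of all peaks at the unadjusted threshold are not given here. With the replicate number as a block 20 of the 27 calls in these comparisons were kept and 24 made, and the count at day7CL was 4. Over all peaks the block left 60 of 47835 called at day1C, against 102 without it, and 375 at day3C, against 610. DESeq2 called 2 of these 27, both of them the Slit3 peak at the gene start, at day7C (adjusted p = 0.0426) and day7CL (0.00883).

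That Slit3 peak, chr11:35120591-35121488, covers the start of the gene and overlaps an exon, and its sequence before the start is printed above. It was at 44.9, 39.1 and 30.1 peak CPM in the day0RT mice. Cold mice had 17.6, 8.00 and 20.8 at day1C, 18.2, 14.4 and 20.1 at day3C and 14.3, 10.6 and 13.7 peak CPM at day7C, and CL mice had 16.0, 22.1 and 11.8 at day1CL, 24.3, 13.4 and 14.9 at day3CL and 11.4, 12.1 and 13.0 peak CPM at day7CL. No treated mouse reached the lowest day0RT mouse. The peak was chosen after its values were seen, and such a separation was not counted over all peaks. The log2 fold change was -0.92 at day3C (SE 0.22, adjusted p = 0.00938), -1.36 at day7C (SE 0.25, adjusted p = 0.000167), -1.35 at day1CL (SE 0.30, adjusted p = 0.00196), -1.16 at day3CL (SE 0.22, adjusted p = 0.000196) and -1.46 at day7CL (SE 0.24, adjusted p = 3.81e-06). The calls at day7C, day3CL and day7CL held without each of the 21 mice in turn. That at day3C was lost without day0RT replicate 1 or day3C replicate 1, and that at day1CL without day1CL replicate 3 (highest adjusted p 0.137 and 0.556).

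The same peak was low in beige nuclei, at 7.15 ± 8.55 peak CPM against 19.5 ± 11.1 in white nuclei, 36.2 ± 27.4 in APC1 and 0.0960 ± 0.429 in CD8 T cells. In white nuclei alone its log2 fold change was -0.87 at day3C (adjusted p = 0.0172), -1.10 at day7C (0.0166), -1.45 at day1CL (0.00182), -1.18 at day3CL (0.000111) and -1.39 at day7CL (1.96e-05). A second peak near the start, centred 1219 bases into the gene, had -0.81 at day7C (adjusted p = 0.308) and -1.20 at day7CL (0.0641). Farther into the gene, intronic peaks at 18083, 95651 and 111178 bases had log2 fold changes of -0.95, -0.86 and -0.68 at day7CL. These calls held without 16, 17 and 18 of the 21 mice in turn. In white nuclei alone none of the 3 was called, at -0.83, -0.65 and -0.58 (adjusted p 0.103, 0.146 and 0.0599). With the replicate number as a block the peaks at 18083 and 95651 bases were at -0.83 (adjusted p = 0.0990) and -0.77 (adjusted p = 0.0815).

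The Unc5a peak printed above, chr13:54959855-54960874, was at 13.3, 16.7 and 7.31 peak CPM at day0RT. It was at 32.1, 30.9 and 31.0 at day1CL, 31.3, 32.1 and 25.9 at day3CL and 20.4, 18.6 and 27.2 peak CPM at day7CL, in each group above the day0RT mice. This peak too was chosen after its values were seen, and separation was not counted over all peaks. The log2 fold change was 1.43 (SE 0.31, adjusted p = 0.00196), 1.40 and 0.93 (SE 0.29, adjusted p = 0.0369), and the value at day3CL exceeded that at day3C, with 21.3, 7.22 and 27.1 peak CPM, by 0.53 (SE 0.16, adjusted p = 0.0492), or 0.50 with the replicate number as a block (adjusted p = 0.145). Without day0RT replicate 3 each of the 4 calls was lost, and the day1CL call was also lost without day1CL replicate 3 (highest adjusted p 0.476). Over the 21 fits without 1 mouse the day7CL call was kept in 17 (highest adjusted p 0.501). The call of day3CL against day3C was kept in 4 of 21 (highest adjusted p 0.671). In no cold group was this peak called against day0RT. White adipocytes had 24.8 and beige adipocytes 6.34 peak CPM on average. The peak at the Unc5a start itself had 0.60 at day7C (adjusted p = 0.267) and 0.38 at day7CL (0.476).

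The Unc5b peak, chr10:60811716-60812245, was almost closed at day0RT. Unc5b encodes a netrin receptor best known from vessels. The day0RT mice had 0, 0 and 0.913 peak CPM, which is 1 count in 2054926, while day7C had 8.41, 5.89 and 8.74 and day7CL 8.02, 9.68 and 7.10 peak CPM. Counts were 29 of 3639947 at day7C and 49 of 5947342 at day7CL, which is 16.4 times (95% exact counting interval 2.71 to 669) and 16.9 times (2.90 to 682) the day0RT rate. At day3C and day3CL the ratios were 16.4 (2.82 to 662) and 13.7 (2.34 to 554). The edgeR adjusted p of these 4 differences lay between 0.00252 and 0.00904, but the peak passed the filter on low counts only through treated groups and was chosen after its values were seen, so they are given as a description. At day1C and day1CL, with 10 counts each, the ratios were 8.68 (1.24 to 377) and 9.97 (1.42 to 433). The intervals cover counting error only. The peak passed the filter without 10 of the 21 mice in turn, and among these fits the day3C and day3CL calls were lost without day0RT replicate 1. The Unc5b gene sum did not move with this peak, at 81.8, 123 and 112 CPM at day0RT and 96.0, 98.7 and 99.0 CPM at day7CL.

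**Figure D5:**
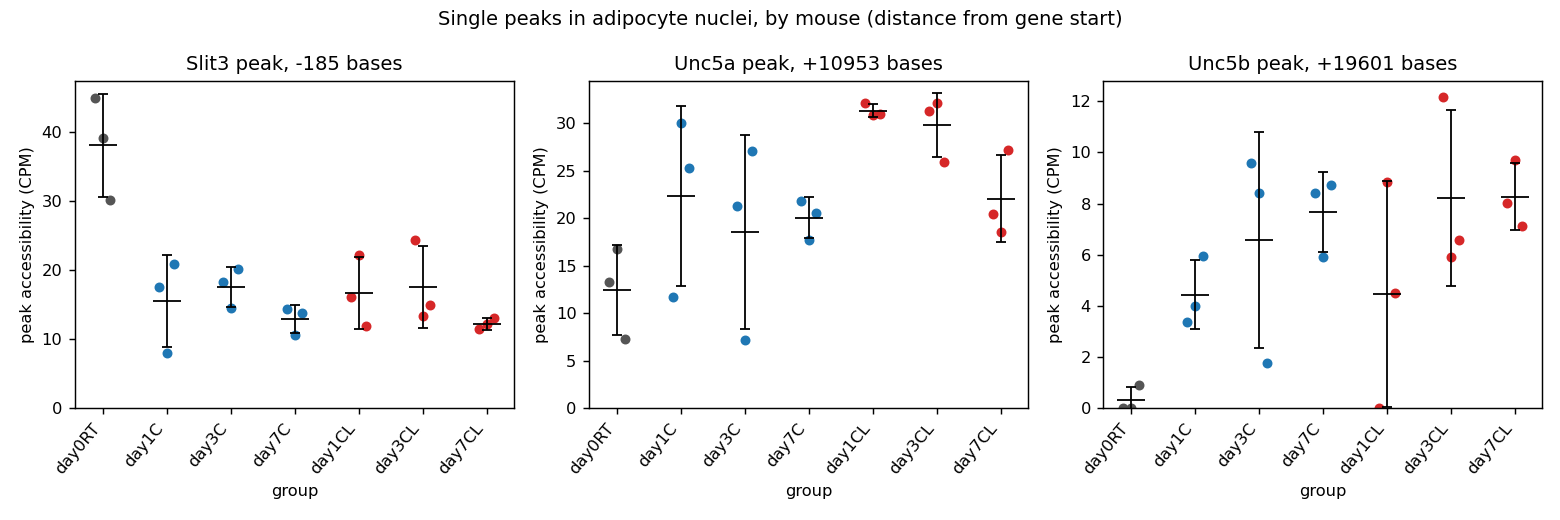
Peak CPM in adipocyte nuclei (vertical axis) of the Slit3 start peak and of intronic peaks of Unc5a and Unc5b, by group (horizontal axis), with a dot for each of 3 mice and a bar for the mean ± SD. The Slit3 peak is at 30.1 to 44.9 at day0RT and at most 24.3 in treated mice, and the Unc5b peak is at most 0.913 at day0RT.

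Other member peaks were called in 1 or 2 comparisons. At day3CL against day0RT, intronic peaks of Ntn1 (1.24) and Robo2 (0.92) and an exonic peak of Plxna2 (1.10) were higher. At day7CL a Sema5a peak 1358 bases past the start (-0.98) and a Sema6d peak (-0.62) were lower. Another Sema6d peak, at 2.79 to 4.57 peak CPM at day0RT, was higher at day7CL (1.28) and day1CL (1.53). It passed the filter only through treated groups, so its calls are given as a description. The day1CL mice, at 0 to 15.2 peak CPM, overlapped day0RT. Over the 21 fits without 1 mouse its day7CL call was kept in 5 and its day1CL call in 11, and that of the lower Sema6d peak in 7. Between CL and cold at day 3 a Unc5c peak 3256 bases past the start was lower after CL, at 6.95, 5.62 and 6.59 against 12.1, 21.7 and 21.9 peak CPM (-1.17, SE 0.25, adjusted p = 0.000864), and peaks of Ntn1 (1.06) and Slit3 (1.19) were higher. With the replicate number as a block the adjusted p was 0.103 for the Sema5a peak, 0.0582 and 0.0676 for the lower and the higher Sema6d peak at day7CL, and 0.147 for this Slit3 peak. Without day0RT replicate 3, 7 of the 27 calls were kept, and the peaks of 5 were not tested.

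Outside adipocytes, the 3 cold groups together and the 3 CL groups together were compared with day0RT in 8 clusters. Of 228 tests of members 1 passed, beside 0.203% of all gene tests, and 25 had an unadjusted p under 0.05. The share of all gene tests at that unadjusted threshold is not given here, so the 25 cannot be read as a shift. The call came from B cells after CL, where 1 of 28 members and 1.31% of the 11502 genes tested differed. In B cells Sema6d was at 61.8 ± 21.2 CPM (n = 9 mice) after CL, from 35.1 to 91.6 CPM with a median of 57.5 CPM, and at 27.7 ± 1.59 CPM (n = 3) at day0RT, from 25.9 to 28.9 CPM, without overlap (0.90, SE 0.19, adjusted p = 0.00290). Non-overlap was not counted over all genes. Without day0RT replicate 1 the adjusted p was 0.0589. Libraries outside adipocytes and lymphocytes were small, and 6 to 15 members passed the filter in macrophages, dendritic cells, APC1 and APC2.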

How the data were processed

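Inguinal adipose nuclei of 21 mice were profiled by single-nucleus ATAC-seq with combinatorial indexing. The 4 deposited samples are sequencing lanes that pool all mice, so mouse, group and cluster of each nucleus were taken from the deposited annotation of nuclei. The authors demultiplexed the reads, aligned them to mm10 with Bowtie2, removed duplicates, called peaks per cluster with MACS2, removed doublets and nuclei of low quality, and deposited the counts of each peak in each nucleus. Of the matrix entries 65588856 were 1 and 145 were 0, so counts were binary.

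Counts of peaks overlapping a gene body or the 2000 bases upstream were summed per gene, and over the nuclei of a mouse and cluster where it had at least 10 nuclei. Libraries were tested on all protein-coding genes with edgeR 4.0.16 in R 4.3.3 (TMM factors, filterByExpr with a minimum count of 10 and total of 15, quasi-likelihood F test), with the mouse as a block between clusters, the group alone in treatment comparisons, and Benjamini-Hochberg adjustment within each comparison at 0.05. Fold changes were fitted with a prior count of 2, and the scripts were tested on simulated data. Each SE is the absolute log2 fold change divided by the square root of its F statistic, so it was derived from the test. The filter counts the libraries of all groups in a fit together, so a gene can pass through 1 cluster or group alone. CPM refer to gene counts of a library and peak CPM to counts in all peaks. DESeq2 1.42.0 and the other settings given at the end were alternatives, and peaks were treated like genes.

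The members, gene lists and tests were chosen with earlier results of these data known. Up to 10 members called in a comparison were named with values, by smallest p, the others by name. Across clusters those highest per kilobase of peak, or at least 2 times the level outside their pair of clusters, were named. The peaks of Unc5a, Unc5b and Slit3 in treated adipocytes were chosen after their values were seen. The mice of a group are separate animals. Nuclei of each replicate number carried their own indexes, and the study describes independent batches of the assay without tying them to these numbers. Taking the number as a batch is therefore an inference. Deviations from the group means correlated at -0.12 to 0.12 over 63 pairs of mice with 1 number, 1 of them over 0.1. The median was 0.0017, against 0.00031 over pairs with different numbers. Of 21 mice, 10 correlated best with a mouse of their own number. 4 members, Plxnb3, Robo4, Sema3e and Sema4g, passed the filter in no comparison and 43 in at least 1.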

Additional observations from a re-analysis of the deposited data

Results flagged for a closer look

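In adipocytes 5 members differed between the CL and cold groups of the same day. The direct edgeR test set 1 group against the other over 42 members and all other genes. Stimulus and barcode index set cannot be told apart in it. At day 3, with 3 mice a group, the difference of CL from cold was 0.48 for Unc5a, 0.53 for Sema5b, 0.44 for Robo2 and -0.64 for Unc5c on the log2 scale. At day 7 it was 0.92 for Sema4d. The values of the mice in the 2 groups did not overlap in these 5, but they were picked by their p and non-overlap was not counted over all genes. DESeq2 called none of the 5 and gave no adjusted p for Sema5b and Unc5c. Groups of 3 mice were not tested for a single far sample, and by Dixon's test the 10 libraries of the VSMC cluster held none for Unc50, Sema6c and Slit1, the members highest there.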

How the results depend on the processing

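The counts of members called were recomputed under each setting, 1 choice changed at a time. Shares of all genes called are not set beside these counts, so they show only how the number of calls moved. Leaving out each mouse in turn gave 17 to 18 members for beige against white, 14 to 21 for white against APC1, 3 to 5 for APC1 against APC2, 1 for VEC against APC1, 5 for macrophages against dendritic cells and 5 to 7 for CD4 against CD8. Against day0RT it gave 0 at day1C and day3C, 1 to 4 at day7C (1 without day0RT replicate 3 or day7C replicate 1), 0 to 2 at day1CL (0 without day0RT replicate 2 or 3 or day1CL replicate 3, 2 without day3C replicate 2), 2 to 5 at day3CL (2 without day0RT replicate 2, 3 without day0RT replicate 1 or 3 or day3CL replicate 2 or 3) and 2 to 7 at day7CL (3 without day0RT replicate 2, 2 without day7CL replicate 1). Between CL and cold it gave 0 at day 1, 0 to 5 at day 3 (0 without day3CL replicate 2, 2 without day3CL replicate 3 or any 1 day3C mouse) and 0 to 1 at day 7 (0 without day7C replicate 1 or 2 or day7CL replicate 2). In other cells it gave 0 to 2 (0 without day0RT replicate 1, 2 without day0RT replicate 2 or day7CL replicate 3). Member peaks ranged from 5 to 9 for beige against white and from 7 to 28 for treatment, where 17 were called without day0RT replicate 1, day0RT replicate 2 or day1CL replicate 3, 7 without day0RT replicate 3, 13 without day3CL replicate 2 and 16 without day7CL replicate 1. With promoter peaks alone 2 members were called for beige against white and for white against APC1, 0 for APC1 against APC2 and for macrophages against dendritic cells, 1 for CD4 against CD8, 1 at day3C, day7C, day3CL and day7CL each, and 0 for CL against cold at days 3 and 7, and VEC against APC1 could not be fitted. In that setting Plxna1 turned to -0.028 in beige against white, and Robo2 to -0.30 at day3CL against day0RT and -0.35 against day3C. With no filter 22 members were called for APC1 against APC2, 17 for VEC against APC1, and 11 each for macrophages against dendritic cells and CD4 against CD8, and Sema5a turned to 0.042 in white against APC1. For VEC against APC1, libraries of at least 30 nuclei gave 13 members and nuclei of at least 2000 counts 8, and the latter gave 2 for CD4 against CD8. These settings also change which genes and libraries are tested. DESeq2 called 3 members at day3CL, 2 at day7CL and 0 for CL against cold at days 3 and 7, and 2 treatment peaks. White nuclei alone gave 0 for CL against cold at day 7 and 16 treatment peaks. A fit of only the 2 groups compared gave 2 at day1CL and 3 at day3CL, and the share of lymphocytes as a covariate, chosen after seeing the data, 0 and 3. Without the 3 mice of few lymphocytes, also chosen after seeing the data, 11 members were called for white against APC1, 0 at day1CL, 3 at day3CL, 1 for CL against cold at day 3, and 11 treatment peaks. The cause of these changes was not tested. Over the 75 called member values, 1462 refits without 1 mouse kept the call and 102 lost it, and the other settings kept it in 572, lost it in 79 and turned the sign in 4.

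With the replicate number as a block, members called were 0, 0, 3, 1, 4 and 4 for day1C, day3C, day7C, day1CL, day3CL and day7CL against day0RT and 0, 4 and 1 for CL against cold. Genes called in all were 25 under the block at day1C, against 49 without it, and 32 at day 7 of CL against cold, against 16. Except for the Plxnd1 call at day3CL and the Sema3d call at day7CL, which it lost, the block changed no member call. For peaks, an alternative chosen after seeing the data, the block made 24 calls and kept 20 of 27.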
